A study of Mus musculus with 12 samples.

Results

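Microtubules are hollow polymers built from dimers of one alpha-tubulin and one beta-tubulin, and mammals encode both subunits in families of similar genes called isotypes. The isotypes differ mostly in a short acidic tail at the end of the protein, where many enzymes modify the polymer, and their mix varies between tissues. The amount of free tubulin also sets the stability of tubulin mRNA: when free subunits accumulate, the factor TTC5 recognizes the first residues of a growing tubulin chain and the CCR4-NOT complex shortens the mRNA. In melanocytes and melanoma cells, microtubules carry pigment granules, form the spindle and are the target of several drugs. The genes described here were chosen by symbol, as the 4 alpha-tubulin genes Tuba1a, Tuba1b, Tuba1c and Tuba4a and the 6 beta-tubulin genes Tubb2a, Tubb2b, Tubb3, Tubb4b, Tubb5 and Tubb6. They are 10 of the 24421 gene symbols in the count tables, and all 10 were among the 11638 genes that passed the filter on low counts (1 or more CPM, TMM-scaled counts per 1000000, in 3 or more libraries).

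RNA from the mouse melanoma line B16F10, an established line grown in culture, was sequenced in 4 groups of 3 samples, 12 libraries in all. Control cells received DMSO, the vehicle. DAC samples received 5-aza-2'-deoxycytidine, a nucleoside analog that traps DNA methyltransferases, at 25 nM for 72 h. SFN samples received sulforaphane, an isothiocyanate from cruciferous vegetables that activates the antioxidant factor Nrf2, for 48 h, and DAC+SFN samples received both drugs for the same times. The labels give the SFN dose as 5 nM in the SFN samples and 5 µM in the DAC+SFN samples, while the methods give one SFN dose for both. Taken as labelled, the comparison of these groups and the interaction would also compare SFN doses. Each library held between 15880957 and 27291436 counts, of which 0.297% to 0.400% fell on the 10 tubulin genes, and this depth limits only Tubb2b, which had 10 to 42 counts per library. Of the 8 melanocyte markers, all were detected, with a summed level of 22434 to 31212 CPM in each library, and the leukocyte and keratinocyte markers never exceeded 3 counts and the endothelial markers 11. With DAC+SFN against control, Pmel (log2 fold change -0.36, adjusted p = 0.0129, edgeR) and Tyrp1 (-0.17, adjusted p = 0.0478) fell and Slc45a2 (0.18, adjusted p = 0.0236) rose. Tyr rose in DAC+SFN against DAC (0.16, adjusted p = 0.0442). No melanocyte marker passed by edgeR with DAC or SFN alone. The fibroblast markers Dcn, Lum and Thy1 had at most 3 counts in any library, while Col1a1, a collagen gene of the same list, ranged from 284 to 9514 counts, Col1a2 from 26 to 202 and Pdgfra from 26 to 65. Of these 3, Pdgfra fell with SFN (log2 fold change -0.84, adjusted p = 0.024, edgeR) and with DAC+SFN (-0.73, adjusted p = 0.0249). Col1a2 fell in DAC+SFN against DAC (-0.71, adjusted p = 0.0493). The DESeq2 test passed 2 of the 3 with SFN but 0 with DAC+SFN, either against control or against DAC. The part of the marker genes in the tubulin values was not tested.

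The near identity of some tubulin genes limits what a uniquely aligned read can tell, so the sequences are given first. On mm10, Tuba1b (chr15:98931425-98934565, minus strand), Tuba1a (chr15:98949837-98953703, minus strand) and Tuba1c (chr15:99029891-99038110, plus strand) lie close together, each with 4 exons in its main transcript. Their coding sequences were 98.3% identical between Tuba1a and Tuba1b, 97.9% between Tuba1b and Tuba1c and 97.1% between Tuba1a and Tuba1c, but only 84.8% between Tuba1a and Tuba4a (chr1:75214228-75219865, minus strand). The first 30 coding bases of 6 of the genes follow, with the 4 codons that encode the sequence recognized during autoregulation in capitals. All 4 alpha-tubulin genes encoded Met-Arg-Glu-Cys there, and all 6 beta-tubulin genes Met-Arg-Glu-Ile.
Tuba1a: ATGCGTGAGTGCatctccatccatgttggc
Tuba1b: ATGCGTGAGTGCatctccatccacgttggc
Tuba1c: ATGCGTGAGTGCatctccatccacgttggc
Tuba4a: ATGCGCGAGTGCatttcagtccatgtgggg
Tubb3: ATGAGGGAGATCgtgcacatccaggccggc
Tubb5: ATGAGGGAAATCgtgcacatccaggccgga

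The likeness extends well beyond these bases. Of all windows of 75 bases, the read length, in the main transcript of each gene, 71.9% in Tuba1b, 68.2% in Tuba1a and 56.7% in Tuba1c also occurred in a transcript of another gene, where an unspliced match would not be unique. For the beta-tubulin genes this share was 43.2% in Tubb2a, 37.8% in Tubb4b and 32.2% in Tubb2b, and it was 0 in Tuba4a, Tubb3, Tubb5 and Tubb6. Counts of the first group of genes therefore rest on the parts of the transcript that are unlike the others, and how reads were shared between paralogs could change their values. Tuba1a and Tuba1b each also overlap the gene model Gm49450 on the same strand, Tubb3 overlaps Gm20388 in the same way, and Tuba4a and Tubb4b overlap Stk16 and Fam166a on the opposite strand. Stk16 had 1000 to 1717 counts per library and Fam166a at most 2. Whether the counting used strand is not given in the sources used here.

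Promoters of the chromosome 15 genes are shown because Tuba1a and Tuba1c, so alike in coding sequence, moved in opposite directions with SFN. RefSeq (GRCm38.p6) gave a promoter for 8 of the 10 genes. The 250 bases before the RefSeq start site of Tuba1a (chr15:98953502-98953751, minus strand), Tuba1b (chr15:98934391-98934640, minus strand) and Tuba1c (chr15:99029641-99029890, plus strand) read as follows. Capitals mark matches on either strand to any of 4 motifs, which are TGACNNNGC, the core of the antioxidant response element that Nrf2 binds, the box CCAAT, the GC box with the letters GGGCGG, and the E-box with the letters CACGTG, and no match overlaps another in these windows.
Tuba1a: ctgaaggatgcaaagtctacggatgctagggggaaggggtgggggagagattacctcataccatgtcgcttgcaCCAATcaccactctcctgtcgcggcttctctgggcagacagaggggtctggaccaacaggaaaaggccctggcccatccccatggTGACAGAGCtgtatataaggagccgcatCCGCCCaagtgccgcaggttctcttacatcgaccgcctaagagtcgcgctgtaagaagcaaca
Tuba1b: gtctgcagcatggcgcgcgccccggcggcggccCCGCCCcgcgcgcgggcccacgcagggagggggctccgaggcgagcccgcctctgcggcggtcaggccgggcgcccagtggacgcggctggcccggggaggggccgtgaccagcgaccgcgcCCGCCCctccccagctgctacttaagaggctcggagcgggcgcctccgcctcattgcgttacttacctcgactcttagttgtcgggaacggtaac
Tuba1c: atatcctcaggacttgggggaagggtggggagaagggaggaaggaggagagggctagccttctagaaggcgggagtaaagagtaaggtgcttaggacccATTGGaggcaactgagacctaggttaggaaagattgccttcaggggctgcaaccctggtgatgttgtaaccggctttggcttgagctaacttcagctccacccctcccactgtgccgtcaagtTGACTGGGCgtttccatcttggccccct

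Counted from the start site to the first base of the match, TGACNNNGC lay at -91 in Tuba1a and at -28 in Tuba1c, both on the plus strand of the gene, and did not occur in the window of Tuba1b. The RefSeq start sites differ from the mm10 gene spans given above. Those of Tuba1a and Tuba1b begin at 98953703 and 98934565 on the minus strand, so most of each window lies inside the span. The Tuba1a match at -91 is in that part, while the window of Tuba1c lies wholly before its gene. The same letters occurred in 10.2% of all 32851 RefSeq promoter windows of this length, CCAAT in 33.8%, GGGCGG in 32.7% and CACGTG in 6.02%. Tubb4b had 5 matches to CCAAT, and the only match to CACGTG among the 8 promoters was in Tubb5. Whether any of these motifs has a part in the response to SFN was not tested.

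Levels of different genes were compared per length, as CPM divided by the length of the gene's exons in kilobases. In control cells, Tubb5, the beta-tubulin of most dividing cells, had the highest level by this length, 473.2 ± 79.6 CPM per kilobase (SD, n = 3, as below). Tuba1a followed with 277.9 ± 34.6 and Tuba1b with 260.3 ± 25.3, and these neighbors lay within each other's spread. Tubb4b, a broadly expressed isotype that cilia also use, had 224.2 ± 31.2, which again overlapped Tuba1b. Tubb3, the isotype best known as a neuronal marker, came next with 95.6 ± 30.9. Lower levels were found for Tuba1c (40.8 ± 3.73), Tubb6 (33.5 ± 7.52) and Tuba4a (27.2 ± 2.71), and the spread of Tubb6 overlapped both of the others. Tubb2a and Tubb2b, isotypes rich in brain, were lowest with 7.02 ± 1.22 and 0.604 ± 0.193. By windows found in 1 gene in place of exon length, the control share of Tuba4a among the alpha genes was 1.75% in place of 4.52%, and that of Tubb4b among the beta genes 39.1% in place of 27.0%. The order of genes also depends on this choice. In control cells Tubb5 had 1574 CPM over 2575 such windows, Tuba1a 501.1 CPM over 549 and Tuba1b 488.0 CPM over 469. Per such window, Tubb5 was thus the lowest of these genes, not the highest.

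Expressed as shares, Tuba1a made up 45.8% ± 1.97 and Tuba1b 43.0% ± 1.69 of the alpha-tubulin level per kilobase in control cells, and Tubb5 made up 56.8% ± 0.588 of the beta-tubulin level. The shares were a description and were not tested. In control replicates 1, 2 and 3, Tuba1a held 47.6%, 46.0% and 43.7% and Tuba1b 41.1%, 43.4% and 44.4%, so Tuba1a was the larger in 2 of 3 libraries. This order depends on the length used, since the mean control share was 43.3% for Tuba1a and 43.7% for Tuba1b by the longest transcript, and 43.4% and 49.5% by the number of 75-base windows found in 1 gene. It was the smaller in all 3 SFN libraries, with 36.2%, 35.8% and 33.2%, and in all 3 DAC+SFN libraries, with 38.2%, 39.3% and 36.7%. On average, Tuba1a held 35.1% ± 1.60 and Tuba1b 51.4% ± 2.31 with SFN. The same shares were 38.1% ± 1.28 and 47.6% ± 2.34 with the combination treatment, and 42.9% ± 2.69 and 44.9% ± 2.60 with DAC. The share of Tuba1c was 6.75% ± 0.475 in control, 8.64% ± 0.415 with SFN and 8.98% ± 0.530 with DAC+SFN.

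Among the beta genes, Tubb6 held 4.00% ± 0.171 of the level in control and 5.43% ± 0.878 with DAC+SFN. Tubb5 held 51.0% ± 2.97 with DAC+SFN, where its highest library, at 52.8%, was below its lowest control library, at 56.1%. Sums of levels depend on the length used, as the levels do, so the alpha sum was not compared with the beta sum. The summed level of the 4 alpha genes was 606.3 ± 59.3 CPM per kilobase in control and 558.4 ± 45.6, 554.1 ± 20.1 and 511.6 ± 46.8 after DAC, SFN and DAC+SFN. For the 6 beta genes it was 834.2 ± 149.2, 788.5 ± 136.3, 879.5 ± 80.4 and 806.8 ± 130.6, and every treated group overlapped the controls in both sums. In replicates 1, 2 and 3, the alpha sum was 604.3, 666.6 and 548.0 in control. It was lower in each with DAC (541.1, 610.2 and 524.0) and with DAC+SFN (476.9, 564.8 and 493.1). With SFN it was 532.5, 572.3 and 557.6, higher than control in replicate 3. The beta sum was lower than control in each replicate number with DAC, but not with SFN or DAC+SFN. The sums were not tested.

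**Figure D1:**
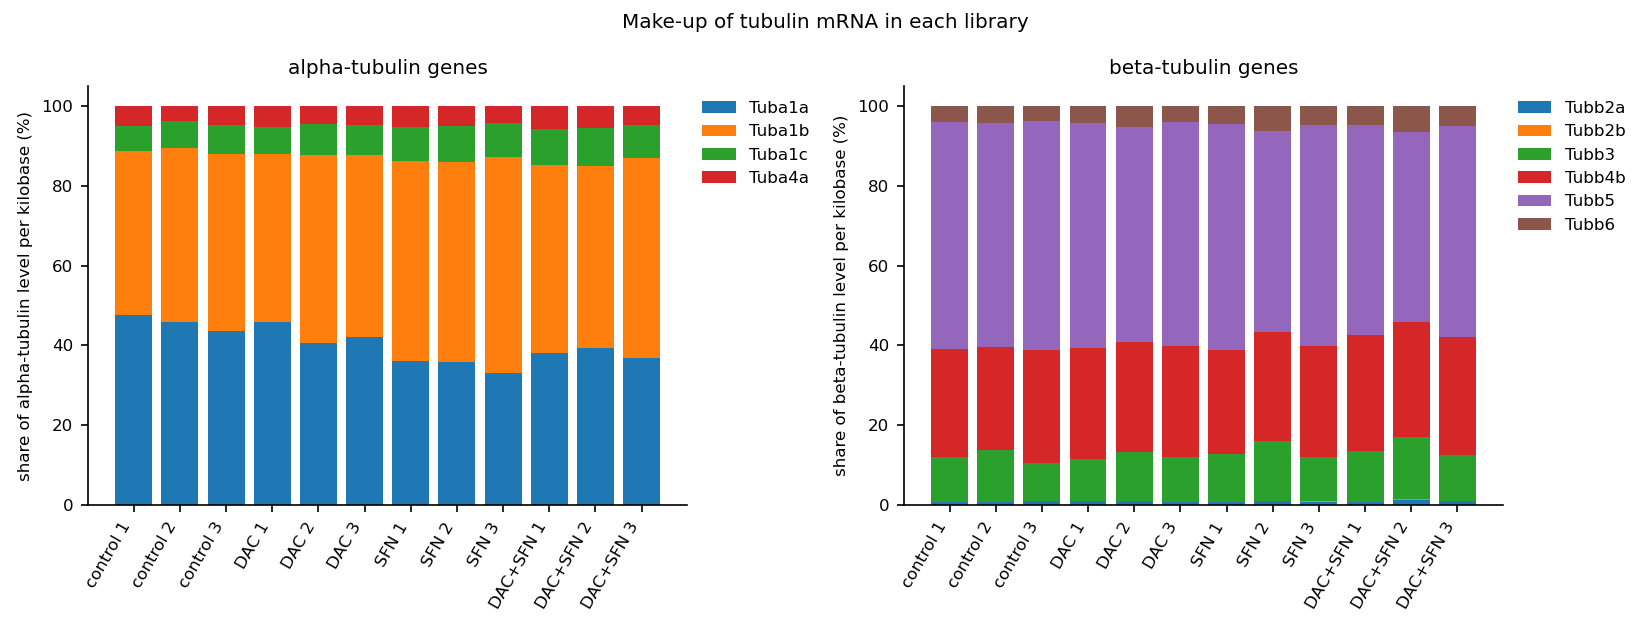
Stacked bars show the share (%) of each gene in the summed alpha-tubulin (left) or beta-tubulin (right) level per kilobase in each of the 12 libraries. The Tuba1a share lies between 43.7% and 47.6% in control and between 33.2% and 36.2% with SFN.

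With SFN single treatment, 4 of the 10 genes passed the test compared to control (adjusted p under 0.05), against 13.9% of all genes tested. Tuba1a fell, while Tuba1c, Tubb3 and Tubb6 rose, and no change reached 2-fold, a size that 1.28% of all genes reached along with the test. The median log2 fold change of the 10 genes was 0.11, and that of all genes tested was 0.00399. The other 6 genes, the abundant Tuba1b, Tubb4b and Tubb5 among them, did not pass.

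Tuba1a, the main alpha-tubulin of developing neurons and abundant in this line, had 518.8, 552.8 and 431.7 CPM in control replicates 1, 2 and 3 and 347.3, 369.0 and 334.0 CPM with SFN. Every SFN library was below every control library, as was so for 1 of the 10 genes and 20.8% of all genes tested in either direction. The log2 fold change was -0.51 (SE 0.06, adjusted p = 9.12e-05, edgeR), and the level fell by 29.9%, while the differences within replicate numbers were -0.58, -0.58 and -0.37. The call held in each of the 6 fits that left out 1 library of the groups compared and ended without the replicate block (adjusted p = 0.0675).

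Tubb6, a beta-tubulin found in many tissues at low levels, had 70.0, 102.8 and 72.2 CPM in control and 92.0, 149.9 and 95.1 CPM with SFN. The groups overlapped because replicate 2 was high in both, and within each replicate number the SFN library was the higher. The log2 fold change was 0.45 (SE 0.06, adjusted p = 0.00026, edgeR), with differences of 0.39, 0.54 and 0.40 in the replicate numbers. The call held in all 6 fits without 1 library, but not without the replicate block (adjusted p = 0.451).

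Tuba1c, a widely expressed alpha-tubulin, had 86.7, 103.0 and 90.5 CPM in control and 102.9, 119.3 and 106.6 CPM with SFN, which gave 0.23 on the log2 scale (SE 0.06, adjusted p = 0.0135, edgeR). Tubb3 had 153.1, 244.8 and 138.0 CPM in control and 190.9, 271.5 and 170.4 CPM with SFN, which gave 0.26 on the log2 scale (SE 0.08, adjusted p = 0.0342, edgeR). Both were higher with SFN in all 3 replicate numbers, and both sets of groups overlapped. These 2 calls were close to the threshold. That of Tuba1c was lost when control replicate 1, control replicate 2, SFN replicate 1 or SFN replicate 3 was left out (adjusted p from 0.0607 to 0.0817), and that of Tubb3 when any 1 of the 6 libraries was left out (0.066 to 0.170). Both were also lost without the replicate block (0.390 and 0.720).

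Tuba1b had 465.5, 542.5 and 455.9 CPM in control and 499.6, 538.1 and 565.5 CPM with SFN, and its log2 fold change of 0.13 (SE 0.06) did not pass (adjusted p = 0.179, edgeR). The nearest coding relative of Tuba1a thus had a value of the opposite sign. Tubb5 (0.02, SE 0.07), Tuba4a (-0.01, SE 0.08) and Tubb4b (0.09, SE 0.05) had small log2 fold changes, with adjusted p of 0.913, 0.935 and 0.286. Tubb2a had 9.34, 13.3 and 11.3 CPM in control and 10.1, 16.1 and 11.8 CPM with SFN (log2 fold change 0.16, SE 0.12, adjusted p = 0.434). Tubb2b had 18 to 42 counts per control library and 18 to 26 per SFN library, and its log2 fold change of -0.59 carried an SE of 0.36 (adjusted p = 0.302).

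**Figure D2:**
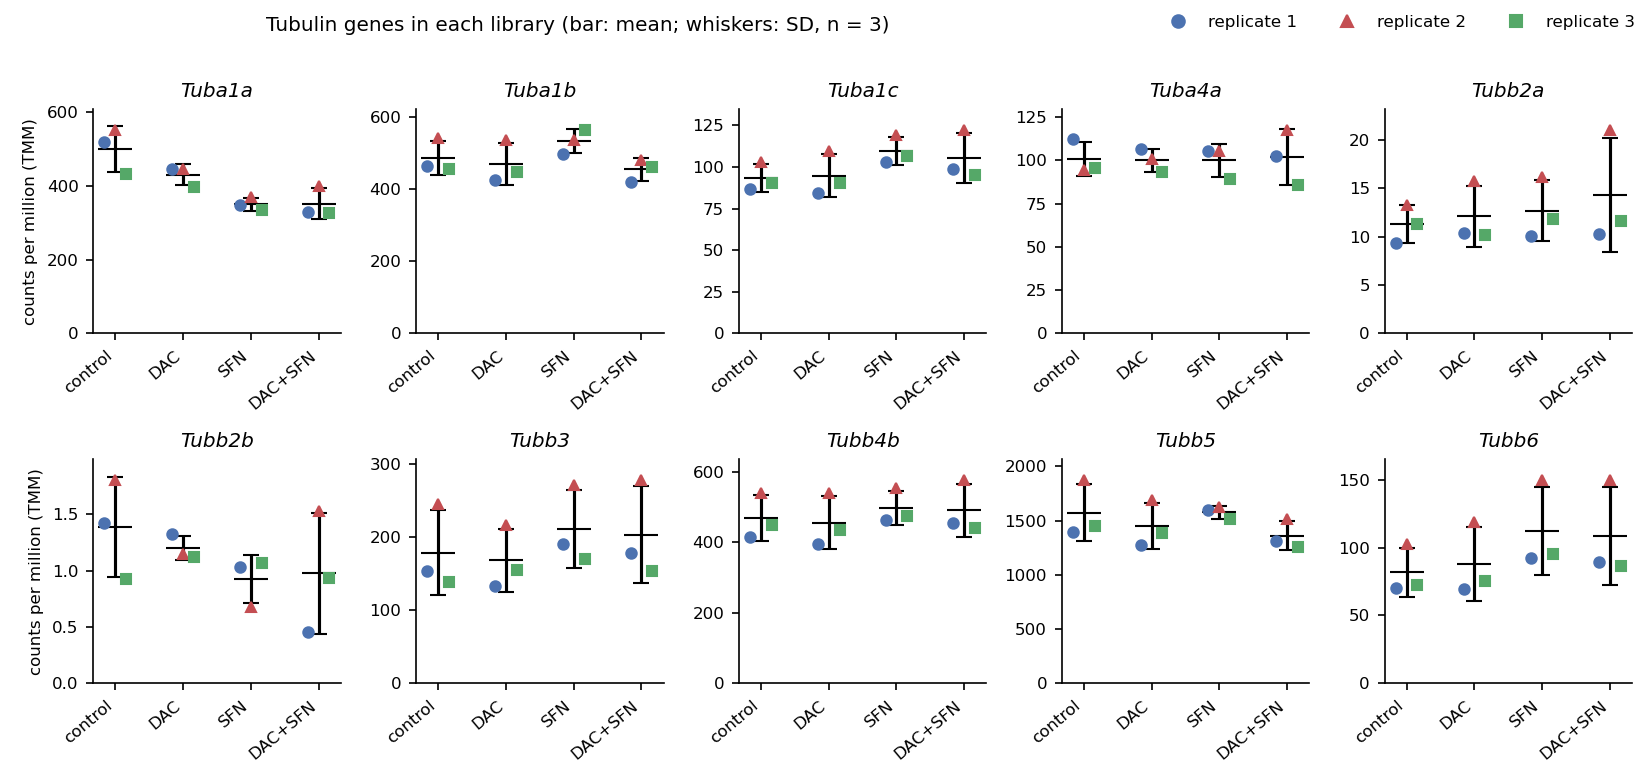
Each panel shows one gene's level in TMM-scaled CPM in the 12 libraries, with marker shape and color for the replicate number, a bar at the group mean and whiskers for the SD (n = 3). Tuba1a lies between 431.7 and 552.8 CPM in control and between 334.0 and 369.0 CPM with SFN, and the replicate 2 libraries of Tubb3 and Tubb6 lie above the others of their group.

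With DAC single treatment, none of the 10 genes passed compared to control by edgeR, and 0.18% of all genes did, or 0.0344% with a change above 2-fold. Unadjusted p was under 0.05 for 1 of the 10 genes, and the DESeq2 test also passed none. That gene was Tuba1a, with 447.4, 447.3 and 397.5 CPM under DAC, which overlapped the control libraries. Its log2 fold change was -0.21 (SE 0.06, adjusted p = 0.206, edgeR), negative in all 3 replicate numbers. With only the DAC and control libraries in the model the adjusted p was 0.00366, and in the other alternatives it did not pass. Tubb5 had 1274, 1690 and 1389 CPM with DAC and 1392, 1878 and 1453 CPM in control, lower in all 3 replicate numbers (-0.12 on the log2 scale, SE 0.07, adjusted p = 0.622). The remaining 8 genes had log2 fold changes between -0.18, for Tubb2b, and 0.09, for Tubb6.

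With the combination treatment, 4 of the 10 genes passed compared to control, against 31.6% of all genes tested, so the share of tubulin genes was near that of the genes as a whole. Tuba1a and Tubb5 fell and Tuba1c and Tubb6 rose. No change reached 2-fold, which 2.66% of all genes did along with the test, and the median log2 fold change was 0.04 for the 10 genes and 0.00776 for all genes.

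Tuba1a had 328.6, 400.2 and 326.7 CPM with DAC+SFN, all below the lowest control library, as was so for 29.4% of all genes tested in either direction. The log2 fold change was -0.51 (SE 0.06, adjusted p = 4.28e-05, edgeR), and this call held under every alternative, with adjusted p up to 0.0154. Tubb6 had 89.3, 150.1 and 86.5 CPM, higher than control in each replicate number (0.39 on the log2 scale, SE 0.06, adjusted p = 0.000299). Its call held in the 6 fits without 1 library and was lost without the replicate block (adjusted p = 0.349).

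Tubb5 had 1316, 1512 and 1252 CPM with DAC+SFN against 1392, 1878 and 1453 CPM in control, and the groups overlapped. Its log2 fold change was -0.20 (SE 0.07, adjusted p = 0.0394, edgeR), with differences of -0.08, -0.31 and -0.21 in the replicate numbers. The call was lost when control replicate 2, control replicate 3 or any 1 of the DAC+SFN libraries was left out (adjusted p from 0.054 to 0.208), without the replicate block (0.302), and with only the DAC+SFN and control libraries in the model (0.0929). Tuba1c had 98.6, 122.4 and 94.9 CPM (log2 fold change 0.17, SE 0.06, adjusted p = 0.0338), and that call was lost when any 1 control library, DAC+SFN replicate 1 or DAC+SFN replicate 2 was left out (0.0624 to 0.151), without the block (0.372), and with only those 2 groups in the model (0.149).

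Tubb3 and Tubb2a had positive values that did not pass. Tubb3 had 178.3, 278.4 and 153.2 CPM with DAC+SFN (log2 fold change 0.19, SE 0.08, adjusted p = 0.0728), and it passed when DAC+SFN replicate 3 was left out (0.0245). Tubb2a had 10.2, 21.02 and 11.6 CPM (0.30, SE 0.12, adjusted p = 0.0764), most of it from replicate 2, and it passed when DAC+SFN replicate 3 was left out (0.0457). Tuba1b (-0.10, SE 0.06), Tuba4a (0.01, SE 0.08), Tubb4b (0.07, SE 0.05) and Tubb2b (-0.53, SE 0.36) did not pass, with adjusted p from 0.258 to 0.932.

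**Figure D3:**
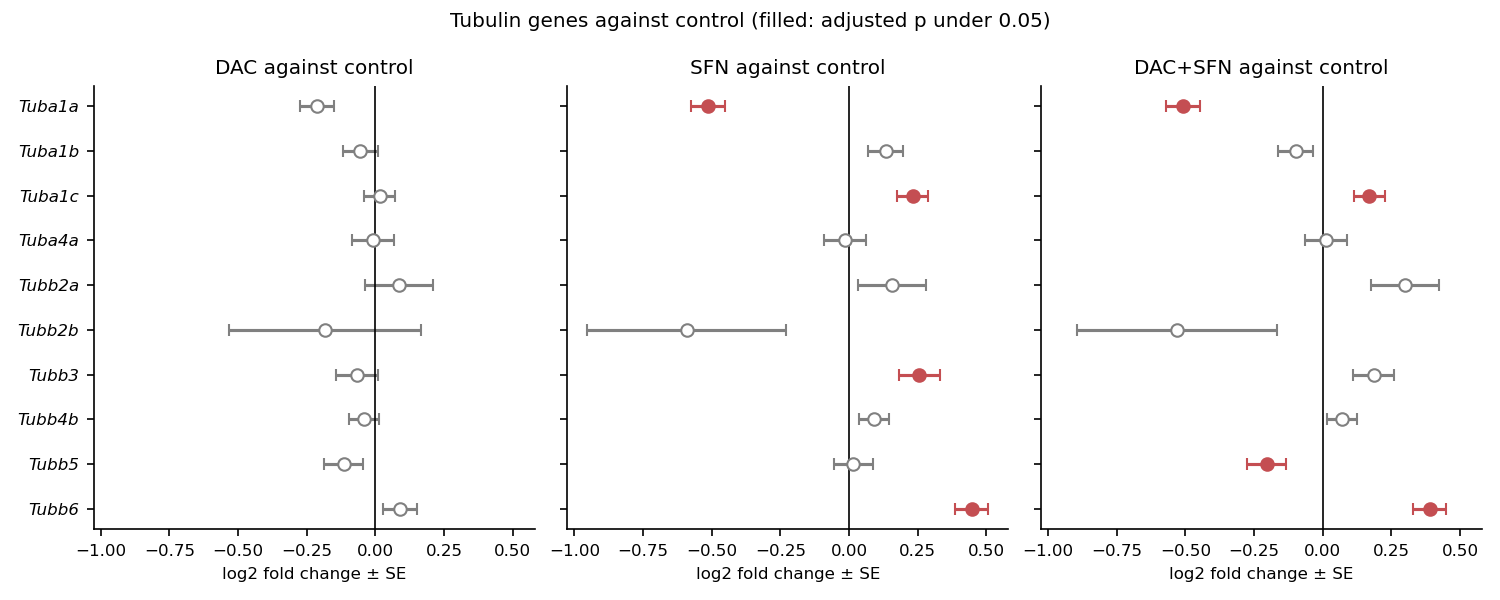
Log2 fold changes against control (horizontal axis, with SE) of the 10 genes for DAC, SFN and DAC+SFN, filled where the adjusted p was under 0.05. No gene is filled for DAC, 4 are filled for SFN and 4 for DAC+SFN, and all 3 comparisons share the control libraries.

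Comparing DAC+SFN to DAC asks what SFN added to DAC. Here 3 of the 10 genes passed, against 16.1% of all genes, and none by more than 2-fold, against 0.928%. Tuba1a fell by 0.30 on the log2 scale (SE 0.06, adjusted p = 0.00573), Tubb6 rose by 0.30 (SE 0.06, adjusted p = 0.0047) and Tubb3 rose by 0.25 (SE 0.08, adjusted p = 0.0343, edgeR). Tuba1a and Tubb6 had the same sign in all 3 replicate numbers, and Tubb3 in 2 of 3. The calls of Tuba1a and Tubb6 held in the 6 fits without 1 library but were lost when all 4 libraries of replicate 1 were left out (adjusted p = 0.159 and 0.121) and without the block (0.197 and 0.609). With only these 2 groups in the model, that of Tubb6 was lost as well (0.055). The call of Tubb3 was lost when replicate 1 or 2 of either group was left out (adjusted p from 0.136 to 0.202) and without the block (0.655), and with only these 2 groups in the model (0.146). Tuba1c, at 0.15 (SE 0.06, adjusted p = 0.0804), passed when DAC+SFN replicate 3 was left out (0.0356).

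Comparing DAC+SFN to SFN asks what DAC added. None of the 10 genes passed by edgeR, and 1.61% of all genes did, while 2 of the 10 had an unadjusted p under 0.05 and DESeq2 passed 1, Tuba1b. Tuba1b had 419.7, 482.9 and 463.6 CPM with DAC+SFN and 499.6, 538.1 and 565.5 CPM with SFN, and the groups did not overlap, as was so for 12.1% of all genes tested. Its log2 fold change was -0.23 (SE 0.06, adjusted p = 0.0736, edgeR), and the adjusted p was 0.0303 with DESeq2 and 0.0413 without DAC+SFN replicate 3. Tubb5 was at -0.22 on the log2 scale (SE 0.07, adjusted p = 0.117). For Tuba1a and Tubb6 the log2 fold changes were 0.00299 (SE 0.06) and -0.06 (SE 0.06), with adjusted p of 0.988 and 0.663.

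The interaction of DAC and SFN, the amount by which the combination departs from the sum of both single treatments on the log2 scale, passed in none of the 10 genes by edgeR or DESeq2 and in 0% of all genes tested. Unadjusted p was under 0.05 for 1 of the 10 genes, Tuba1a, with 0.22 (SE 0.09, adjusted p = 0.847). Tuba1b had -0.18 (SE 0.09) and Tubb6 -0.15 (SE 0.09), each with one sign in all 3 replicate numbers.

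More tubulin genes passed for the replicate number than for any treatment. The term for it in the model passed in 9 of the 10 genes, all but Tubb2b, against 33.9% of all genes tested. Replicate 2 was the highest of the 3 in all 4 groups for Tuba1c, Tubb2a, Tubb3, Tubb4b, Tubb5 and Tubb6. For Tubb2a, Tubb3, Tubb4b and Tubb6, the 4 replicate 2 libraries lay above all 8 others whatever the treatment. Tubb6 averaged 130.5 CPM in replicate 2, 80.2 in replicate 1 and 82.3 in replicate 3 (1.60-fold, replicate 2 against the other replicates), and Tubb3 averaged 252.8, 163.9 and 154.0 CPM (1.59-fold). Tubb2a was 1.54-fold and Tubb4b 1.26-fold higher in replicate 2. The test was of any difference among the 3 replicate numbers, not of these folds, and gave adjusted p of 5.96e-07 for Tubb6, 3.33e-06 for Tubb3, 0.000353 for Tubb2a and 0.000109 for Tubb4b (edgeR). Without replicate 2, 1 of the 10 genes passed for this term, Tuba4a, whose libraries were lowest in replicate 3 in 3 of the 4 groups.

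The libraries of a replicate number also carry neighboring library numbers (1 to 4, 5 to 8 and 11 to 14), so culture repeat and library preparation cannot be told apart. Other lists moved with the number too. The summed level of the 6 fibroblast markers, most of it Col1a1, was 64.1 to 94.0 CPM in replicate 1, 19.6 to 28.5 in replicate 2 and 250.4 to 366.3 in replicate 3, and all 8 melanocyte markers passed for the replicate term. The 11 actin-list genes summed to 8286 to 9578 CPM in replicate 2, against 6929 to 7864 and 7432 to 8138 CPM in replicates 1 and 3. Their part in the tubulin values was not tested.

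**Figure D4:**
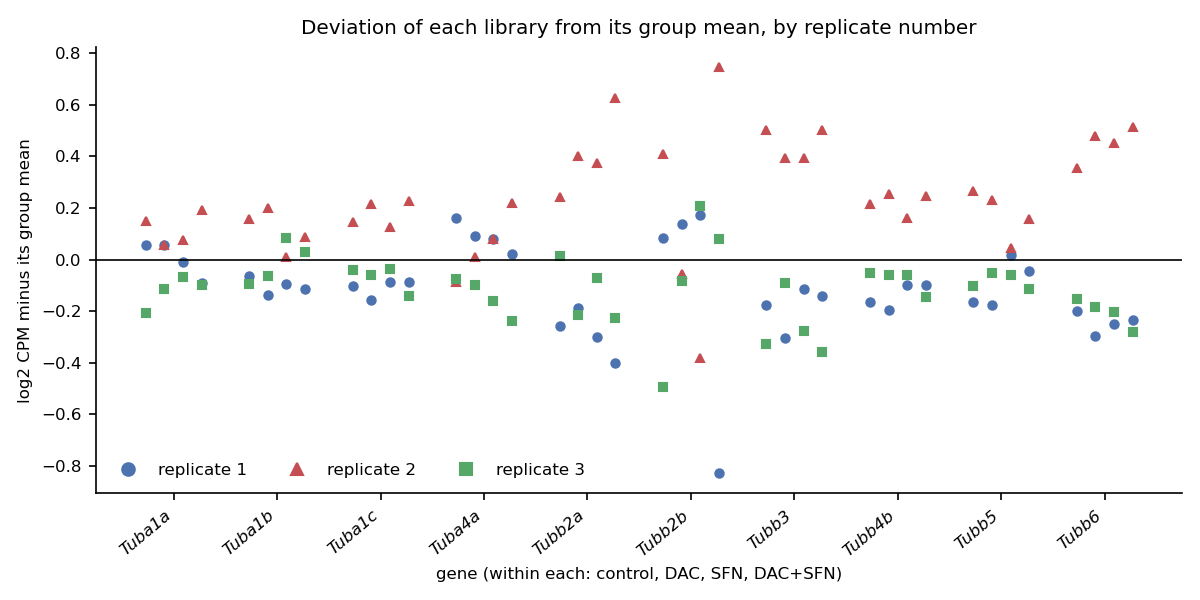
Each marker is one library's log2 CPM minus the mean of its group, drawn for each gene in the order control, DAC, SFN, DAC+SFN, with shape and color for the replicate number. Replicate 2 lies above the group mean in all 4 groups for 8 of the 10 genes, Tuba4a and Tubb2b being the exceptions.

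Of 8 further tubulin genes, no library held more than 3 counts of Tuba3a, Tuba3b, Tubal3 or Tubb1, or more than 16 of Tuba8. Tubb4a, a brain isotype, rose with DAC+SFN, with 45, 48 and 25 counts against 12, 15 and 15 counts in control (log2 fold change 1.48, SE 0.32, adjusted p = 0.00304, edgeR). Every control library was below 1 CPM, so this gene entered the test only through treated libraries where it was higher. Its log2 fold changes with DAC (1.00, SE 0.34, adjusted p = 0.307) and SFN (0.69, SE 0.34, adjusted p = 0.200) did not pass. Tubd1 and Tube1, the delta and epsilon tubulins of centrioles, had log2 fold changes of -0.27 and -0.28 with DAC+SFN and did not pass (adjusted p = 0.0565 and 0.0597).

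The counts in the lists of partner genes are read against the 31.6% of all genes that passed with DAC+SFN against control and the 13.9% with SFN, and no difference between a list and all genes was tested. None of the 8 subunits of the CCT chaperonin and none of the 6 of prefoldin, which together fold new tubulin chains, passed in any of the treatment comparisons by edgeR or DESeq2, and by edgeR the unadjusted p was under 0.05 for 1 prefoldin gene with DAC+SFN, against control and against DAC. Of the 7 genes in the list of tubulin folding cofactors, Tbcb and Tbcd fell with DAC+SFN (log2 fold change -0.23, SE 0.06, adjusted p = 0.0119, and -0.20, SE 0.06, adjusted p = 0.017), and Tbcd also fell with SFN (-0.20, SE 0.06, adjusted p = 0.0273). The gene for the autoregulation factor, Ttc5, had 30.6 to 36.3 CPM in the 12 libraries and a log2 fold change of -0.02 (SE 0.07) with SFN and with DAC+SFN. Of the 11 genes of the autoregulation list, 5 (45.5%) passed with DAC+SFN, all of them CCR4-NOT subunits that fell, Cnot2 (-0.28, SE 0.06, adjusted p = 0.0043), Cnot9 (-0.24, SE 0.06), Cnot6 (-0.25, SE 0.07), Cnot7 (-0.23, SE 0.07) and Cnot11 (-0.15, SE 0.05), the last 4 with adjusted p from 0.00803 to 0.0427. With the single treatments none of this list passed by edgeR, while the unadjusted p was under 0.05 for 2 genes with SFN and 1 with DAC, and DESeq2 passed 1 with SFN and 0 with DAC. The median log2 fold change of the list was -0.15 with DAC+SFN.

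Among the 19 tested genes that modify tubulin, 1 rose and 2 fell, both with SFN and with DAC+SFN (15.8% in each, below the share of all genes with DAC+SFN and near it with SFN). Vash1 and Vash2, the vasohibins that cut off the tyrosine at the end of alpha-tubulin, fell to 0.619 and 0.561 times the control level with SFN and to 0.643 and 0.567 times with DAC+SFN (adjusted p from 0.00269 to 0.0105), with group means of only 2.15 to 5.18 CPM. Ttll3, which adds glycine, rose by 0.74 with SFN (SE 0.20, adjusted p = 0.024) and by 0.82 with DAC+SFN (SE 0.20, adjusted p = 0.00675) on the log2 scale.

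Genes for proteins that bind the polymer moved in both directions with DAC+SFN. Of 12 plus-end and assembly factors, 5 rose and 3 fell (66.7% passed, against 31.6% of all genes), with Tacc1 at 0.49 (SE 0.08, adjusted p = 0.000303) and Tacc2 at 0.49 (SE 0.09, adjusted p = 0.000629) against Tacc3, the member that works at the mitotic spindle, at -0.45 (SE 0.07, adjusted p = 0.000158). Of 11 structural microtubule-associated proteins, 5 rose and 1 fell (54.5%), led by the stabilizer Map6 at 0.69 (SE 0.09, adjusted p = 9.75e-05), which had 16.3, 27.6 and 15.5 CPM in control and 29.7, 44.2 and 21.9 CPM with DAC+SFN. Map4 rose by 0.24 and Map1a by 0.43 (adjusted p = 0.00564 and 0.00945), and Mapt, which encodes tau, fell by 0.36 (adjusted p = 0.0217). Of 12 destabilizing and severing factors, none rose and 4 fell (33.3%, near the share of all genes), with Stmn1, which sequesters tubulin dimers, at -0.51 (SE 0.08, adjusted p = 0.000335). Stmn1 had 204.3, 195.5 and 183.5 CPM in control and 123.4, 135.4 and 150.7 CPM with DAC+SFN, so the groups did not overlap, as was so for 29.4% of all genes tested. Of the 11 genes of the gamma-tubulin ring complex, which starts new microtubules, Tubg1, Nedd1 and Tubgcp3 fell and Cdk5rap2 rose, a share of 36.4%, also near that of all genes (log2 fold changes from -0.27 to 0.20). In these lists, SFN alone raised Map6 (0.57, adjusted p = 0.00095), Tacc1 (0.40, 0.00313), Tacc2 (0.37, 0.00997), Clip2 (0.31, 0.0485) and Cdk5rap2 (0.16, 0.0467), and no gene fell (edgeR). In DAC+SFN against SFN, only Tacc3 (-0.31, adjusted p = 0.0372) and Stmn1 (-0.40, 0.0318) passed.

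Proliferation genes are given beside these because several lists hold spindle factors. Of 16 of them, 14 fell with DAC+SFN, 1 with SFN (Ccna2, -0.25, SE 0.07, adjusted p = 0.0261) and none with DAC by edgeR or DESeq2, although 10 had an unadjusted p under 0.05 there, and their summed level was 4146 to 4442 CPM in control and 3511 to 4006, 3818 to 4112 and 3196 to 3586 CPM after DAC, SFN and DAC+SFN. The part of the proliferation genes in the tubulin values was not tested. Of the 8 actin-list genes tested, Actg1 alone passed, and it rose by 0.25 with SFN and 0.28 with DAC+SFN (adjusted p = 0.0183 and 0.00446), while the neuronal list, whose genes Tubb3 often accompanies, had 3 of 12 genes past the filter. Of those 3, Eno2 rose and Uchl1 fell with DAC+SFN (0.70, adjusted p = 0.0016, and -0.50, adjusted p = 0.00254). Uchl1 also fell with SFN (-0.42, adjusted p = 0.0138) and in DAC+SFN against DAC (-0.46, adjusted p = 0.0088), where Eno2 did not pass by edgeR.

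**Figure D5:**
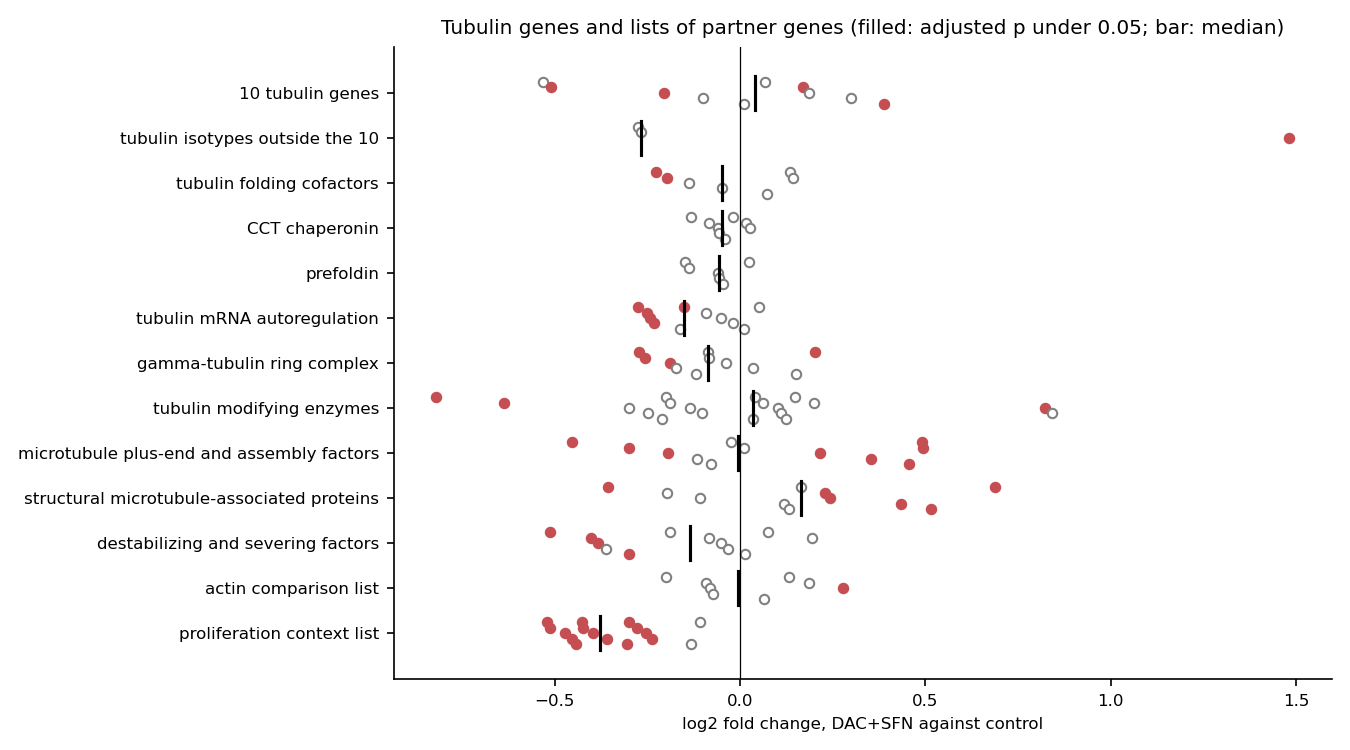
Log2 fold changes with DAC+SFN against control (horizontal axis) for the 10 tubulin genes and for each list of partner genes, one marker per gene past the filter, filled where the adjusted p was under 0.05, with a bar at the list's median. The 10 tubulin genes lie on both sides of 0 around a median of 0.04, and the 16 proliferation genes have a median of -0.38.

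Over the 12 libraries, which share treatments, replicate numbers and depth, the members fell into unlike patterns, given here as descriptions. Tuba1c and Tubb6 followed each other closely (Pearson r of log2 CPM 0.97, Spearman rho 0.99, and r = 0.96 after subtracting the mean of each replicate number). Tuba1a and Tuba1b did not (r = 0.08, rho = 0.14, and -0.09 after that subtraction). Of the 11628 other genes tested, the one most like Tuba1a was Sgtb (r = 0.96, rho = 0.93, and 0.96 after subtraction), a gene at 5.32 CPM. The one most like Tubb6 was Anxa5, which encodes annexin A5 (r = 0.97, rho = 0.94, and 0.92), and the one most like Tuba1c was Timm17a, part of the mitochondrial import machinery (r = 0.97, rho = 0.92, and 0.98). Rrm2, a subunit of ribonucleotide reductase, was most like Tuba1b (r = 0.94, rho = 0.95, and 0.93), and Cdk2ap1 most like Tubb5 (r = 0.96, rho = 0.98, and 0.96). For Tubb3 it was Capzb (0.97, rho = 0.96, and 0.85), for Tubb4b Atp5b (0.98, rho = 0.94, and 0.85) and for Tubb2a Grpel1 (0.95, rho = 0.85, and 0.74), whose r fell the most once replicate means were taken out. Rnf181 was most like Tuba4a (r = 0.95, rho = 0.94, and 0.91) and 2610524H06Rik most like Tubb2b (r = 0.86, rho = 0.87, and 0.89).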

How the data were processed

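The authors trimmed the reads with Trimmomatic 0.38 after FastQC 0.11.7, aligned them to mm10 with TopHat 2.1.1, kept uniquely aligned reads and counted them with HTSeq. They deposited raw counts per gene symbol, and the gene annotation was not given in the sources used here. From these counts, genes that reached 1 CPM in 3 or more of the 12 libraries were kept, scaled by TMM and tested with the quasi-likelihood F-test of edgeR 4.0.16 (R 4.3.3), two-sided, in 1 model of all libraries blocked on replicate number, and p-values were Benjamini-Hochberg adjusted over all 11638 genes. A gene passed at an adjusted p under 0.05. Each SE came from the log2 fold change (prior count 0.125) over the root of its F. Groups and replicate numbers came from the labels, and the methods describe independent repeats. Libraries with the same number deviated together in all 18 pairs (r of 0.27 to 0.73). No 2 replicates were copies, with a chi-square of 13.6 to 37.5 per gene between them. CPM was divided by the union of exons in GENCODE M21 (mm10), and 2 of the lists' symbols were matched through older names. DESeq2 1.42.0, other scalings, filters and fits, and left-out libraries were alternatives, and the fits were tested on simulated data. The members and gene lists were chosen with earlier results of these data known. Named genes are the members, list genes that passed (up to 4 per list, smallest adjusted p in DAC+SFN against control first) and each member's most similar gene. Clip2, Cnot11, Mapt, Ttc5, Tubd1, Tube1, the low tubulin genes, the marker genes and overlapping genes were named besides these, after their values were seen. Tests on counts cover the spread between these samples. Figures used matplotlib 3.10.9 in Python 3.11.15.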

Additional observations from a re-analysis of the deposited data

How the results depend on the processing

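With no replicate block, the pairing of samples by number was ignored, and 0 tubulin genes passed with SFN, 1 with DAC+SFN against control (Tuba1a) and 0 with DAC+SFN against DAC. With only the samples of the groups compared, 1 gene passed with DAC (Tuba1a), 2 with DAC+SFN against control (Tuba1a, Tubb6), 1 with DAC+SFN against DAC (Tuba1a) and 2 with DAC+SFN against SFN (Tuba1b, Tubb5). In that last comparison DESeq2 passed 1 and the fit without a filter 2. With a fold above 2 required as well, 0 passed in every comparison. Leaving out 1 library, or all libraries of a replicate number, gave 2 to 4 genes with SFN, 2 to 5 with DAC+SFN against control, 0 to 4 against DAC, 0 to 1 against SFN, 0 with DAC and for the interaction, and 1 to 9 for the replicate number. The cause was not tested. Over the 11 gene calls and 19 alternatives each, 157 of the values kept sign and call and 52 lost the call, none reversing, and 12 values of genes not called passed. Tuba1a with DAC+SFN against control passed under all 19. The change of -10.7 percentage points in the Tuba1a share with SFN was between -10.6 and -10.3 with other lengths or raw CPM, the share by windows found in 1 gene being added after seeing the data. The levels per kilobase depend on the length: the control share of Tuba4a was 4.52%, 1.75% by those windows and 8.57% in raw CPM, and that of Tubb4b 27.0%, 39.1% and 20.3%. Without the block, 23 of all genes in place of 1619 passed with SFN, and 1201 in place of 3683 with DAC+SFN.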
